A study of Mus musculus with 21 samples.

Results

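The uroplakin genes Upk1a, Upk1b, Upk2, Upk3a and Upk3b were followed probe by probe through mouse prostate tumours profiled on Illumina bead arrays. The members were chosen by name with their levels on these same arrays in view, so every uroplakin value below is a description and carries no test. The array named 9 probes for these 5 genes, out of 45126 probes in all. Of these, 8 probes, covering all 5 genes, passed the detection filter, which kept 24217 probes and 12570 genes over the whole array. The 21 arrays held 8 samples of genotype NP, 8 of genotype NPK with no month in their label, 3 NPK samples labelled 1 month and early stage, and 2 NPK samples labelled 3 months and late stage. All were tumours of the anterior prostate, and the labels list treatment as not applicable. The labels give each genotype by these letters only, with neither age nor the start point of the months. Every sample carries a separate ID, but whether an ID stands for an animal is not stated. The p-values below therefore reflect sample-to-sample spread alone, part of which may be technical.

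Uroplakins are membrane proteins of the umbrella cells that line the bladder. They pack into rigid plaques, the asymmetric unit membrane, that let the bladder wall stretch while staying tight to urine. Upk1a and Upk1b belong to the tetraspanins, proteins that cross the membrane several times, and each escorts a single-span partner out of the endoplasmic reticulum: Upk1a pairs with Upk2, and Upk1b with Upk3a or Upk3b. Upk3b is also known as a gene of mesothelium, the lining of body cavities. The urothelium and the prostate both develop from the urogenital sinus, and the prostate drains into the urethra, whose upper part is lined by urothelium.

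Several properties of the arrays bear on every level below. Intensities are in arbitrary background-subtracted units, and a probe was called above noise on an array when it exceeded that array's noise level, which ran from 19.98 to 60.6 units. The 5 arrays with the highest noise levels, 51.2 to 60.6 units, were NPK replicates 1 to 5, which share a chip. NP, NPK without a month and the month-labelled arrays lay on separate chips, so genotype and chip cannot be told apart, whereas the 1-month and 3-month arrays shared a chip. NP replicates 4 and 5 were far closer than any other pair within a group (their log2 levels differed with an SD of 0.141, and those of the pair ranked after them with 0.330), and their mean was used as 1 sample, leaving n = 7 for NP. In bulk tissue, fewer cells of a type and less RNA per cell cannot be told apart.

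Upk1a, on chromosome 7, was lower in every NPK tumour without a month than in any NP tumour, and several-fold lower in the group mean. Its probe ILMN_2907788 read from 1627 to 4183 units in NP, with a median of 2423. In NPK without a month it read from 163 to 629 units, with a median of 415. It was above noise on 8 of 8 arrays of each group. The highest NPK tumour therefore lay below the lowest NP tumour, and the ranges did not overlap. Normalized log2 levels averaged 11.16 ± 0.53 (SD, n = 7) in NP and 8.59 ± 0.93 (SD, n = 8) in NPK, a difference of -2.57 ± 0.39 (SE), or 5.94-fold. The other Upk1a probe, ILMN_1240084, fell between 1563 and 4727 units in NP and between 192 and 1041 units in NPK. It gave a log2 difference of -2.24 ± 0.36 (SE), again without overlap, and the ranks of both probes over 21 arrays were alike (Spearman 0.90).

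Upk1b, the other tetraspanin, on chromosome 16, was lower in NPK as well. Probe ILMN_2936646 read from 8301 to 15969 units in NP, with a median of 11047, and from 644 to 4220 units in NPK, with a median of 2595. Every one of these 16 arrays was above noise, and the ranges did not overlap. The log2 level averaged 13.27 ± 0.35 (SD, n = 7) in NP and 11.16 ± 0.80 (SD, n = 8) in NPK, a difference of -2.11 ± 0.36 (SE) or 4.32-fold. Within NPK the level moved with the chip: its log2 mean was 11.62 over the 5 arrays of one chip, 10.65 over the 2 of another and 9.90 on the array that lay alone on its chip, and the part of the chip in the result was not tested. The other Upk1b probe, ILMN_2519577, was above noise on 0 of 21 arrays and gives no level.

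Thus 2 of the 5 genes, Upk1a and Upk1b, were lower in NPK with no overlap of the groups. Over all genes tested, 5.14% were lower in NPK with no overlap and 2.88% were higher with none. Since the members were chosen with these levels known, nothing is read from that count.

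The single-span partners did not share 1 pattern. Upk2, on chromosome 9, the partner of Upk1a, overlapped widely between the genotypes: 109 to 729 units in NP, with a median of 294, against 120 to 756 units in NPK, with a median of 215. It was above noise on all 16 arrays. The log2 difference was -0.03 ± 0.43 (SE), from 8.10 ± 1.07 (SD, n = 7) in NP and 8.07 ± 0.84 (SD, n = 8) in NPK. Its sign turned in 12 of 30 other processing settings, over a range of -0.81 to 0.56, so no direction is given. The highest NPK value belonged to replicate 3.

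Upk3a, on chromosome 15, a partner of Upk1b, was detected in nearly every NP tumour and in few NPK tumours. Probe ILMN_2805051 read from 21.1 to 1496 units in NP, with a median of 603, and was above noise on 7 of 8 arrays. In NPK it read from 4.38 to 75.5 units, with a median of 25.0, and was above noise on 2 of 8 arrays, replicates 2 and 8. NP replicate 6, the array not above noise, was the only NP tumour among the NPK values: its log2 level was 5.44, the next NP level was 8.04, and the highest NPK level was 6.29. Because most NPK arrays were not above noise, the difference is given as a bound within this processing, at least 5.56-fold lower in NPK. There the dim group is set no lower than the weakest signal above noise on each array. The bound, 2.48 on the log2 scale, does not hold in every setting. The measured difference was -2.41 with an offset of 50, -2.10 without the chip of NP replicates 1 to 5 and -1.42 with the authors' values. The measured log2 means were 8.52 ± 1.55 (SD, n = 7) in NP and 5.47 ± 0.60 (SD, n = 8) in NPK, -3.05 ± 0.50 (SE) apart. Detection here leans on the noise level of the chip: NPK replicate 1, at 47.4 units, lay below its own level of 60.6, while replicate 8, at 40.4 units, lay above its level of 25.6.

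Upk3b, on chromosome 5, stood on the other side. Its probe of highest mean, ILMN_2941714, read from -9.15 to 320 units in NP, with a median of 64.1, and was above noise on 6 of 8 arrays. In NPK it read from 73.5 to 785 units, with a median of 251, and was above noise on 8 of 8. NPK tumours were on the whole higher, but NP replicates 1, 7 and 8, at 7.03, 7.79 and 8.17 on the log2 scale, lay within the NPK range of 7.02 to 9.28. The log2 difference was 1.68 ± 0.43 (SE), from 6.46 ± 1.27 (SD, n = 7) to 8.14 ± 0.66 (SD, n = 8), or 3.19-fold. The probes ILMN_2941712 and ILMN_2941715 gave smaller differences of 0.86 ± 0.46 (SE) and 0.70 ± 0.31 (SE), both with overlap, and the latter was above noise on 8 of 21 arrays only.

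**Figure D1:**
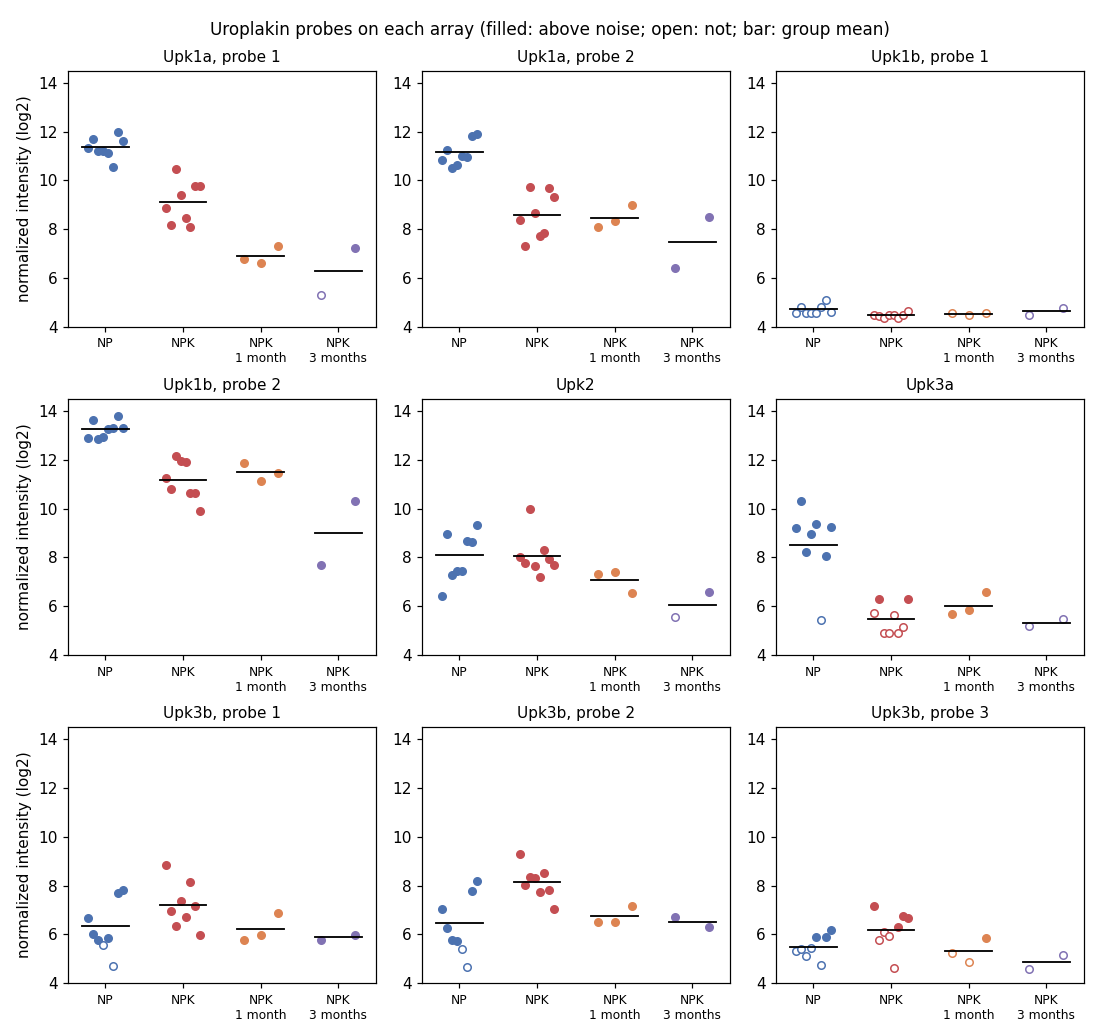
Normalized log2 intensity of each of the 9 uroplakin probes (vertical axis, log2 units) on each of the 21 arrays, in 4 groups; filled points are above noise, open points are not, and bars are group means. Upk1a and Upk1b (probe 2) lie apart in NP and NPK, Upk3a lies apart but for NP replicate 6, Upk2 overlaps and Upk3b sits higher in NPK with overlap.

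The month-labelled NPK tumours extended these levels, and since they are compared with the same NP samples as above, the comparisons are not independent. At 1 month, Upk1b read 2716, 1577 and 2691 units, within the range of NPK without a month. At 3 months it read 154 and 1196 units. Both 3-month tumours were thus below all 3 early ones, with log2 means of 9.01 ± 1.86 (SD, n = 2) and 11.49 ± 0.36 (SD, n = 3), -2.48 ± 0.63 (SE) or 5.59-fold apart. This SE draws on the spread in all 4 groups and is narrow beside the 3-month SD, and leaving out replicate 1 at 3 months brought the difference to -1.17. The order of the group means was NP, NPK at 1 month, NPK without a month and NPK at 3 months, where the middle neighbours differed by 0.33, less than their spread.

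Upk1a depended on the probe in these tumours. ILMN_2907788 read 174, 201 and 457 units at 1 month and 54.2 and 316 units at 3 months, so that the stages overlapped. The 1-month mean lay 0.12 below NPK without a month on the log2 scale, within the spread. ILMN_1240084 read 64.4, 58.8 and 131 units at 1 month and 14.3 and 121 units at 3 months. On this probe the 1-month tumours lay wholly below NPK without a month, by 2.22 on the log2 scale, so the probes disagree on where the 1-month tumours stand. Both probes placed NP highest, 2.69 and 4.46 above the 1-month mean on the log2 scale. Between the stages the difference was -0.998 ± 0.69 (SE) for the first probe, and it became 0.051 without replicate 1 at 3 months.

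Upk2 read 99.5, 104 and 71.6 units at 1 month and 22.6 and 69.3 units at 3 months, the first of which was not above noise. In units all 5 lay below every NP and NPK array, but after normalization the 1-month values, 6.56 to 7.39, overlapped both groups, which began at 6.40 in NP and 7.203 in NPK. The log2 means were 7.09 ± 0.46 (SD, n = 3) and 6.06 ± 0.71 (SD, n = 2). The stages overlapped by a narrow margin, 6.56 against 6.56. Upk3a read 22.4, 29.0 and 72.5 units at 1 month, above noise on 3 of 3 arrays, and 10.97 and 20.2 units at 3 months, above noise on 0 of 2. In this processing the late tumours were at least 1.37-fold lower, without overlap, while the authors' values gave a log2 difference of -0.14. Against NPK without a month, which was above noise on 2 of 8 arrays, no difference is given.

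Upk3b on ILMN_2941714 read 52.1, 53.2 and 117 units at 1 month and 70.0 and 54.5 units at 3 months, all above noise. The log2 means of 6.74 ± 0.38 (SD, n = 3) and 6.51 ± 0.30 (SD, n = 2) lay near the NP mean and 1.40 and 1.62 below NPK without a month. The elevated Upk3b level was thus seen in NPK without a month and not in the month-labelled groups of the same genotype, which were on another chip. Between 1 and 3 months, Upk1b and Upk3a were lower with no overlap, as were 24.3% of all genes tested, while 25.4% were higher with none.

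**Figure D2:**
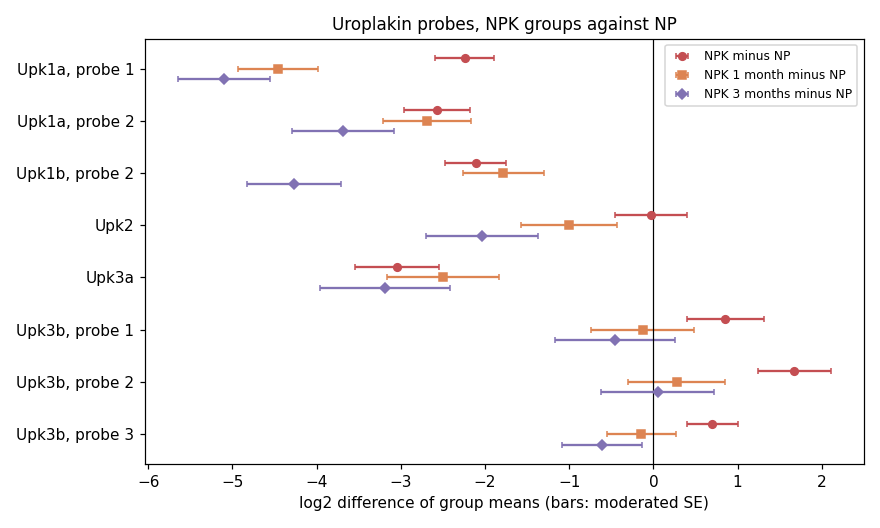
Difference of group means from NP on the log2 scale (horizontal axis) for the 8 uroplakin probes kept, for NPK without a month, at 1 month and at 3 months; bars are moderated SE, and all 3 comparisons share the NP samples. Upk1a, Upk1b and Upk3a lie to the left of 0 in every comparison, Upk2 moves left in the month-labelled groups, and Upk3b lies to the right in NPK without a month.

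**Figure D3:**
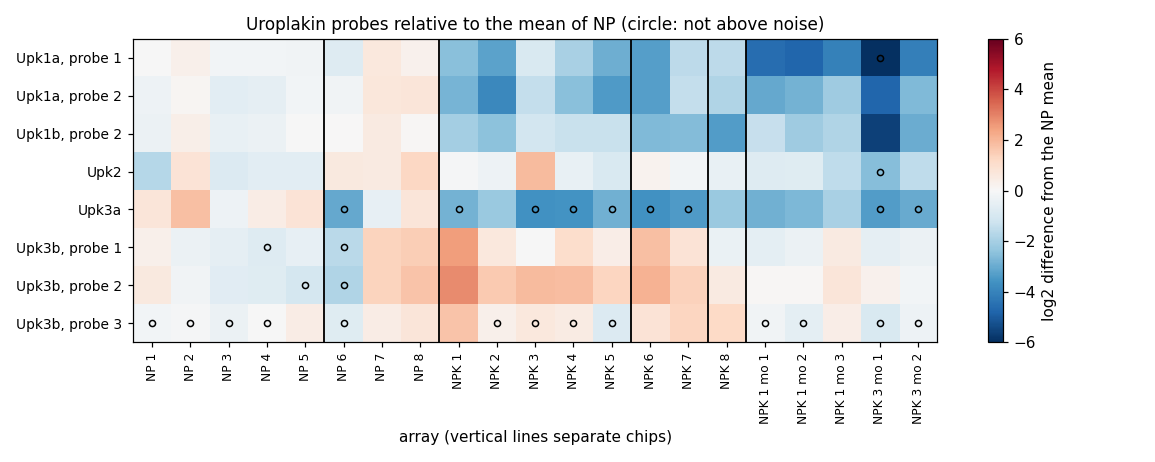
Each array (columns, grouped by chip with vertical lines) against the 8 uroplakin probes kept (rows); colour is the log2 difference from the NP mean, and circles mark values not above noise. The lowest Upk1a and Upk1b values are those of replicate 1 at 3 months, and NP replicate 6 is low for Upk3a and Upk3b.

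The promoters show what sequence lies ahead of members that differed in opposite directions. RefSeq windows on build GRCm38.p6 were given for 3 of the 5 members, and the 250 bases before the annotated start are printed 5′ to 3′ on the gene's strand, with searched motifs in capitals. The motifs were picked after the sequences had been seen.
Upk1a, chr7:30612735-30612984, minus strand: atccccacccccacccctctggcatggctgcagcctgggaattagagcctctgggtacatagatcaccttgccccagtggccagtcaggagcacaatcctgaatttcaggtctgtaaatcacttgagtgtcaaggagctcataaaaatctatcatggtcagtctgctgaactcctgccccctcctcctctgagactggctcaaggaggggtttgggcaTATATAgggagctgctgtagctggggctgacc
Upk3a, chr15:85016891-85017140, plus strand: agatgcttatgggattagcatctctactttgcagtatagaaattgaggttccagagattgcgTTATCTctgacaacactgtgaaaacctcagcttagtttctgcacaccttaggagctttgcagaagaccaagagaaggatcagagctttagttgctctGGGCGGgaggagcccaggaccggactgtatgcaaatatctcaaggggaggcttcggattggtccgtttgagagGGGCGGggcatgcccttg
Upk3b, chr5:136038246-136038495, plus strand: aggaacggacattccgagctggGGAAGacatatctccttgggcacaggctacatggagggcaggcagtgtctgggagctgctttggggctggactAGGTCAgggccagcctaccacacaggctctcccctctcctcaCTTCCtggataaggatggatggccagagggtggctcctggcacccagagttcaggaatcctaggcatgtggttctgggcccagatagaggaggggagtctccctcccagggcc

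The motifs searched, each on both strands, were the TATA box letters TATATA or TATAAA, the GATA factor letters AGATAA, the GC box letters GGGCGG, the nuclear receptor letters AGGTCA and the ETS factor letters GGAAG. None of the matches overlapped another. Upk1a held TATATA, 32 to 27 bases before the start, a motif that 5.25% of 32817 windows of the same length hold. Upk3a held AGATAA on the reverse strand, 188 to 183 bases before the start, and 2 copies of GGGCGG, at 91 to 86 and 18 to 13 bases. AGATAA stands in 9.99% of windows and GGGCGG in 32.7%. Upk3b held AGGTCA at 155 to 150 bases, found in 14.0% of windows, and GGAAG at 228 to 224 bases and on the reverse strand at 113 to 109 bases, found in 64.1%. TATAAA, in 12.4% of windows, was in none of the 3. A match is a description of these letters and not a site in use.

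The members' patterns over the 20 samples were set beside all other genes tested, as a description, since the samples share groups and chips. Upk1a and Upk1b had Pearson r = 0.82 over 20 samples, 0.78 within the 7 NP samples and -0.03 within the 8 NPK samples. Upk3a and Upk1a had r = 0.72 over all samples, but 0.15 within NP and -0.34 within NPK, so the resemblance lay between the groups. Upk1a and its partner Upk2 had r = 0.51 over all samples, 0.75 within NP and 0.48 within NPK. For Upk1b and its partner Upk3a these were 0.64, 0.01 and -0.51. Upk3b had r of -0.27, -0.19 and -0.28 with Upk1a, Upk1b and Upk3a over all samples. Its values with the same genes were 0.76, 0.33 and 0.49 within NP, and -0.23, 0.43 and -0.42 within NPK. The genes most like Upk1a were Hoxd4 (r = 0.92), Skap1, Trp53bp1, Akip1 and Ppp1r9a (0.91). Those most like Upk1b were Rtn4rl1 (0.93), Gsdmc2, Elmo3, Ces1d and Pdzk1 (0.89). Nearest to Upk3a were Pkd2l1 (0.91), Abcc5, Atp6v1a, Gad1 and Tnrc6b (0.87). Upk2 and Upk3b had looser neighbours, led by Clic3 (0.81), Art4, Prxl2b, Qars and Hacd2 (0.78) for Upk2, and by Cdhr2 (0.81), Tbxa2r, Nadk, Slit3 and Aaas (0.76) for Upk3b. Within groups these values were uneven, as for Rtn4rl1 with Upk1b, at -0.29 within NP and 0.76 within NPK.

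Genes that work with the uroplakins, or mark the same cells, were then tested between NPK and NP with limma across all 12570 genes. Of 36 tested genes in lists of trafficking partners, transcription factors and urothelial differentiation, 6 rose and 5 fell. Over all genes 33.3% passed the threshold, 15% higher and 18.2% lower, so the lists' counts lay near the background and are no result about these genes. Among 9 trafficking genes, Rab11a, a small GTPase of recycling vesicles, fell with a log2 difference of -0.96 ± 0.17 (SE, adjusted p = 0.000357), and Tollip, an adaptor of endosomal sorting, rose by 0.50 ± 0.10 (SE, adjusted p = 0.0011). Rab27b, which moves uroplakin vesicles to the cell surface, had a difference of 0.05 ± 0.20 (SE, adjusted p = 0.867), and a further probe of it gave -0.79. Mal, a protein of apical sorting, had 0.71 ± 0.29 (SE, adjusted p = 0.0652), and a further probe of Mal gave -0.94. Upk3bl, the neighbour of Upk3b on chromosome 5, was above noise on 0 of 8 NP and 4 of 8 NPK arrays, with a difference of 0.75 ± 0.31 (SE, adjusted p = 0.0669). Snx31, a sorting nexin that binds uroplakins, was above noise on 0 arrays.

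Among 9 transcription factors the regulators of urothelial differentiation Gata3 and Pparg fell, by log2 differences of -0.81 ± 0.18 (SE, adjusted p = 0.0023) and -0.85 ± 0.26 (SE, adjusted p = 0.0173). Klf5, a factor of epithelial progenitors, rose by 0.62 ± 0.12 (SE, adjusted p = 0.000822), and Rarg, a retinoic acid receptor, rose on the probe used, while its other probes gave -0.32 and 0.09. Foxa1, shared by prostate and urothelium, had a difference of -0.09 ± 0.17 (SE, adjusted p = 0.717), and Trp63, a factor of basal cells, had -0.80 ± 0.49 (SE, adjusted p = 0.223). Of 18 differentiation and barrier genes, 3 rose and 2 fell. Krt20, the keratin of umbrella cells, rose 3.87-fold (log2 difference 1.95 ± 0.47 SE, adjusted p = 0.00368), from above noise on 5 of 8 NP arrays to 7 of 8 NPK arrays. Krt7 and Cldn4 were the others that rose. Krt18, a luminal keratin, fell by 0.60 ± 0.16 on the log2 scale (SE, adjusted p = 0.00664), and Aqp3, a water and glycerol channel, fell by 1.52 ± 0.44 (SE, adjusted p = 0.0134). Aqp3 was above noise on 8 of 8 NP arrays and 3 of 8 NPK arrays, so its difference leans on values not above noise. Psca, a surface antigen of both epithelia, had 0.68 ± 0.92 (SE, adjusted p = 0.596). With median scaling in place of quantile normalization, where the median of all genes moved to -0.38 and calls split into 770 higher and 5486 lower in place of 1891 and 2291, the 3 lists split into 1 higher and 9 lower, and Klf5 (0.21) and Tollip (0.07) no longer passed. Pparg and Aqp3 did not pass with chip as a random block or without either NP chip or that of NPK replicates 1 to 5, where Aqp3 was at -0.23, although Aqp3 otherwise stayed between -1.53 and -1.29 and Pparg between -0.97 and -0.79 in these settings. Nor did Krt20 pass without the chip of NP replicates 1 to 5 (adjusted p = 0.0734) or that of NPK replicates 1 to 5 (adjusted p = 0.125).

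Of 24 tested tetraspanins other than Upk1a and Upk1b, 2 rose and 5 fell, near the shares of 15% and 18.2% over all genes. Tspan8 fell by 1.13 ± 0.15 on the log2 scale (SE, adjusted p = 3.75e-05) and Cd81, part of a B cell co-receptor, fell by 0.53 ± 0.11 (SE, adjusted p = 0.00125). Cd151, which binds laminin-binding integrins, rose by 0.47 ± 0.11 (SE, adjusted p = 0.00412), a call lost under median scaling (0.08) and without the chip of NP replicates 1 to 5 (0.28) or that of NPK replicates 1 to 5 (0.34). The median over the list was 0.16, against -0.01 over all genes.

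Between 3 months and 1 month, 10 of the 36 genes fell and 0 rose in the limma fit, while at an unadjusted p under 0.05 the counts were 15 and 2. Over all genes 19.1% passed, 9.75% lower and 9.4% higher. Among these lists the decline lay mainly in the differentiation and barrier list, where 7 of 18 genes fell and the median log2 difference was -1.15, against 0.02 over all genes. It was not particular to the urothelial lists: of 8 prostate genes tested 4 fell, Spink1 among them, with a median of -2.16. Of 8 seminal vesicle genes 5 fell and 0 rose, with a median of -6.30. Cldn4 and Cldn7, claudins of tight junctions, fell, with log2 differences of -2.24 ± 0.35 (SE, adjusted p = 0.000225) and -1.77 ± 0.34 (SE, adjusted p = 0.00109), and Tjp3, a junction scaffold, fell by 2.67 ± 0.52 (SE, adjusted p = 0.00129). Krt20 had a difference of -0.62 ± 0.82 (SE, adjusted p = 0.682). Of the trafficking genes, Mal fell by 2.98 ± 0.51 (SE, adjusted p = 0.00044) and Myo5b, a myosin motor of recycling vesicles, fell by 2.64 ± 0.41 (SE, adjusted p = 0.00018), although further probes of Myo5b gave -0.47 and -0.97. Of the transcription factors, Elf3, a factor of epithelial differentiation, fell by 2.68 ± 0.58 (SE, adjusted p = 0.003), while Gata3 had -0.50 ± 0.32 (SE, adjusted p = 0.32) and Pparg 1.17 ± 0.46 (SE, adjusted p = 0.0851). Among 24 tetraspanins 3 rose and 4 fell, with Tspan1 at -3.39 ± 0.86 (SE, adjusted p = 0.00863) and Cd151 at 0.98 ± 0.20 (SE, adjusted p = 0.00195). Without replicate 1 at 3 months, also the lowest for Upk1a and Upk1b, 4 of the 36 genes were lower in place of 10, and Elf3 (-0.96), Cldn7 (-1.06), Tjp3 (-1.54) and Tspan1 (-2.21) no longer passed. A fit of the 5 month-labelled samples alone called 1 of the 36 lower.

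**Figure D4:**
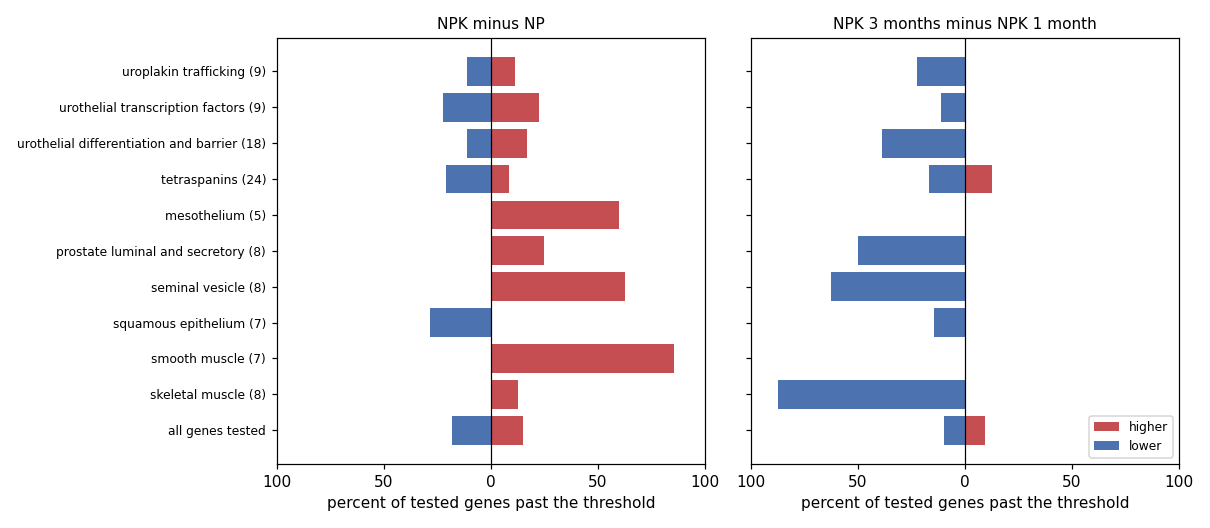
Percent of tested genes past an adjusted p of 0.05 (limma) in each gene list, higher to the right and lower to the left, for NPK against NP and for 3 months against 1 month; the number tested is in parentheses and the bottom row is all genes. The urothelial differentiation list has 7 of 18 genes lower at 3 months and the prostate list 4 of 8, beside 9.75% lower over all genes.

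Markers of neighbouring tissues were set beside the same comparisons, and their part in the uroplakin values was not tested. Over all genes 15% were higher and 18.2% lower in NPK than in NP. Between 1 and 3 months 9.4% were higher and 9.75% lower. Beside the higher Upk3b in NPK, mesothelial genes rose for 3 of 5 tested: Msln, mesothelin, by 2.95 ± 0.40 on the log2 scale (SE, adjusted p = 4.2e-05), Aldh1a2, a retinoic acid synthase, by 1.74 ± 0.30 (SE, adjusted p = 0.000304), and Cldn15 by 0.72 ± 0.26 (SE, adjusted p = 0.0413), a call that did not pass in 18 of 30 other settings. The others tested did not pass: Bnc1 had 0.77 ± 0.30 (SE, adjusted p = 0.0589), and Pkhd1l1 went the other way, at -0.54 ± 0.23 (SE, adjusted p = 0.0753). The mean log2 level over the 5 tested genes ran from 5.80 to 7.25 in NP, 7.06 to 7.95 in NPK, 7.57 to 7.77 at 1 month and 7.51 to 7.86 at 3 months. The mesothelial genes Calb2 and Gpm6a had probes, but none passed the detection filter. Lrrn4 was above noise on 0 of 21 arrays, and Wt1 was not analysed here.

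Beside the lower Upk1a, Upk1b and Upk3a in NPK, seminal vesicle secretory genes rose for 5 of 8 tested, where 15% of all genes did. Svs5 was up by 5.69 ± 1.12 on the log2 scale (SE, adjusted p = 0.000869), Svs4 by 5.29 ± 1.17 (SE, adjusted p = 0.00212) and Svs1 by 4.05 ± 1.19 (SE, adjusted p = 0.0135). Of these 3, Svs1 was above noise on 2 of 8 NP arrays and 7 of 8 NPK arrays. Svs2, also among the 5 (2.94 ± 1.10 SE, adjusted p = 0.0464), was above noise on 0 of 8 NP and 5 of 8 NPK arrays. It passed the detection filter through NPK arrays alone, so its place in the count carries no weight. Without the chip of NPK replicates 1 to 5 none of Svs5, Svs4 and Svs1 passed (3.70, 3.45 and 1.72). Without that of NP replicates 1 to 5 neither Svs5 nor Svs1 did, and Svs1 also did not pass with chip as a random block or with the authors' values. Their mean level ran from 4.88 to 8.16 in NP, 6.47 to 14.63 in NPK, 11.03 to 14.52 at 1 month and 5.61 to 7.69 at 3 months. Smooth muscle genes rose for 6 of 7, led by Acta2 at 1.69 ± 0.35 (SE, adjusted p = 0.00127), and their mean ran from 7.65 to 9.56 in NP, 8.78 to 12.27 in NPK, 9.56 to 11.04 at 1 month and 8.10 to 9.60 at 3 months. Squamous genes fell for 2 of 7, Lor and Sprr1a, where 18.2% of all genes did, and nothing is read from this count. Sprr1a did not pass in 9 and Lor in 1 of 30 other settings. The squamous means were 7.65 to 9.3996 in NP and 7.16 to 8.60 in NPK. Skeletal muscle genes rose for 1 of 8 against NP, near the share of 15% over all genes. That gene, Actn3, was above noise on 0 of 8 NP and 1 of 8 NPK arrays. Its call did not pass in 8 of 29 other settings, and nothing is read from it. Between 1 and 3 months 7 of 8 skeletal muscle genes fell, where 9.75% of all genes did. Their means were 9.38 to 9.96 at 1 month and 6.28 to 6.40 at 3 months.

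Prostate genes rose for 2 of 8 tested in NPK, where 15% of all genes did, and nothing is read from this count. They were Fkbp5, a co-chaperone of steroid receptors, at 1.82 ± 0.30 on the log2 scale (SE, adjusted p = 0.000221) and Spink1 at 3.00 ± 1.07 (SE, adjusted p = 0.0372). The Spink1 call did not pass in 14 of 30 other settings. Its group means ran in the same order as those of the seminal vesicle gene Svs1. They were 7.82 in NP, 10.83 in NPK, 14.16 at 1 month and 6.26 at 3 months, beside 5.28, 9.33, 13.4 and 4.63 for Svs1. Between 1 and 3 months 4 of the 8 prostate genes fell, where 9.75% of all genes did. Spink1 was among them, at -7.90 ± 1.88 (SE, adjusted p = 0.006). Acpp was at -2.97 ± 0.40 (SE, adjusted p = 5.96e-05) and Tmprss2 at -3.83 ± 0.67 (SE, adjusted p = 0.000559). In limma, Tmprss2 did not pass with the 2 month groups alone (adjusted p = 0.0849) or with the authors' values (adjusted p = 0.099). Of the defining prostate markers, Pbsn was above noise on 0 arrays and Hoxb13 on 2 of 21. The mean level over the 8 tested genes, Spink1 included, ran from 8.19 to 10.35 in NP, 8.77 to 9.94 in NPK, 9.27 to 9.43 at 1 month and 6.37 to 7.56 at 3 months.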

How the data were processed

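RNA of 21 mouse prostate tumours was hybridised to Illumina bead arrays. The deposited intensity values are linear and background-subtracted, as values below 0 show, and BeadStudio and lumi appear in the submitters' processing notes. The authors also deposited processed log2 values, normalized separately for the month-labelled arrays, which served as an alternative within each set. The noise SD of an array was the root mean square of its values below 0, and a probe was above noise past that SD times the normal quantile for a probability of 0.01. Intensities were corrected with normexp at a background mean of 0, given an offset of 16, quantile normalized and taken to log2. Probes above noise on at least 3 arrays were kept, and each gene was read from its probe of highest mean. limma 3.58.1 (R 4.3.3) tested the genes on 20 samples in 1 fit of 4 groups with 16 residual degrees of freedom, Benjamini-Hochberg adjustment and a threshold of 0.05. For the uroplakins, a fold against a group above noise on at most 50% of its arrays is a bound, which holds for this processing only.

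Probe symbols came from the platform annotation, updated through RefSeq, where 78 symbols had no match, and 34767 probes had 1 symbol and 18 several. The members and gene lists were chosen with earlier results of these data known. Named are the uroplakins, the 3 genes of each list with the smallest adjusted p in each comparison (not all of those of the neighbouring tissues are printed), a set of defining markers, and the 5 genes most correlated with each uroplakin. Rarg, Krt7 and Cldn4 (in NPK against NP) fall outside that rule and were named after their values were seen. Replicate numbers did not pair samples: same-numbered NP and NPK samples had correlations of deviations from -0.12 to 0.08. The test was checked on simulated data with independent samples, the same spread in all groups and no chip effect, which these arrays need not meet. For NPK against NP it recovered 75% of changes of log2 1 and 97% of log2 2. For 3 months against 1 month it recovered 41% and 74%. Alternatives were another scaling, filter, offset and probe rule, the authors' values, chip and replicate blocks, and leaving out each replicate or chip. The number of arrays limits the precision. The alleles behind the genotype letters are not reported here.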

Additional observations from a re-analysis of the deposited data

Results flagged for a closer look

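Upk2 on NPK replicate 3 had a normalized log2 level of 10.0, far above the other 7 NPK tumours, the next of which was at 8.31, and was the 1 sample that stood apart among 18 groups of uroplakin values examined in this way. Chance alone marks about 1 in 20 such groups.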

How the results depend on the processing

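Of the NPK against NP differences, Upk1a (-2.98 to -1.97), Upk1b (-2.87 to -1.93), Upk3a (-3.76 to -1.42) and Upk3b (0.73 to 1.98) kept their sign in 30 alternatives. The ends came from the authors' values for Upk3a (-1.42) and Upk3b (0.73) and from leaving out the chip of NPK replicates 1 to 5 for Upk1b (-2.87). Upk2 changed sign in 12 of 30, which was counted as no reversal since its difference is smaller than the replicate SD, a reading settled after the first output was seen. Genes past the threshold, 4182 in NPK against NP, numbered 2360 with chip as a random block, 2762 without the chip of NP replicates 6 to 8 and 2116 without that of NPK replicates 1 to 5. Genes of the 3 urothelial lists called higher and lower, 6 and 5, became 1 and 9 with median scaling and 3 and 3 with the chip block. They became 3 and 2 without the chip of NP 6 to 8, and 2 and 3 without that of NPK 1 to 5, while without the chip of NP 1 to 5 there were 3 lower. Upk3a was above noise on 4 NPK arrays at a noise probability of 0.05, in place of 2.

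For 3 months against 1 month, genes past the threshold (2407) numbered 1336 with the 2 groups alone, 1418 with the authors' values and 1109 to 2201 with 1 replicate left out. Genes of the 3 urothelial lists called lower (10) numbered 1, 2 and 4 to 12 in the same settings. Those called higher (0) numbered 1 with median scaling, 2 with the replicate block and 0 to 2 with 1 replicate left out. Leaving out 1 replicate moved Upk1a from -2.05 to 0.051, the sign turning without replicate 1 at 3 months, and Upk1b from -3.80 to -1.17. A replicate block, though the numbers do not pair samples, gave 3677 and 2002 genes past the threshold in the 2 comparisons and NPK against NP differences of -2.45 for Upk1a and -2.22 for Upk1b. The causes were not tested.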
